A study of Mus musculus with 12 samples.

Results

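The genes described here are 35 genes that encode extracellular matrix proteins or matrix-associated secreted proteins of stromal cells, the fibroblasts and vascular wall cells that lie around blood vessels and in the meninges. They were taken by symbol from the 55401 genes counted in each library, and all 35 were found. They comprise 5 fibrillar collagen chains, 4 chains of collagens VI and XII, 8 genes of the basement membrane, 4 proteoglycans, 7 genes of elastic fibres and their cross-linking, and fibronectin with 6 matricellular proteins. The libraries were bulk RNA-seq of microglia, the resident macrophages of the brain, sorted as CD45int CD11b+ cells, and the comparison asks how these genes differ with microglial loss of the histone deacetylase HDAC3 and with stroke.

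Each of 4 groups held 3 libraries. WT-Sham and WT-tFCI mice were CX3CR1 wt/wt:HDAC3 loxp/loxp, with floxed Hdac3 and no Cre. miKO-Sham and miKO-tFCI mice were CX3CR1 CreER/wt:HDAC3 loxp/loxp, in which tamoxifen-activated Cre expressed from the Cx3cr1 locus deletes Hdac3. All groups thus carried floxed Hdac3, and the miKO groups also differed from WT in having CreER in place of a Cx3cr1 allele. The mice were male, knockout was induced with intraperitoneal tamoxifen on 5 consecutive days at 6 to 8 weeks of age, and surgery followed at least 1 month later. tFCI, transient focal cerebral ischemia, was a 60 min occlusion of the left middle cerebral artery, and Sham mice had the same exposure without occlusion. Cells were collected on day 3, and each library combined microglia of 3 to 4 hemispheres, so the spread between libraries is that between pools of mice.

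The matrix outside cells is built from fibrillar collagens that give tensile strength, sheet-like basement membranes of collagen IV, laminin and nidogen around vessels, elastic fibres, and proteoglycans that bind water and growth factors. Matricellular proteins such as thrombospondin 1, tenascin C, periostin and SPARC sit in this network and modulate how cells attach to it. In brain most of these genes are expressed by fibroblasts, mural cells, endothelial cells and astrocytes, and after injury they take part in scar formation; microglia are known to express Sparc among them.

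In the library check, the targeted gene Hdac3 was 34.98, 44.0 and 46.4 CPM in WT-Sham, 25.8, 24.97 and 20.9 in miKO-Sham, 54.0, 52.9 and 43.9 in WT-tFCI and 36.0, 27.1 and 28.9 in miKO-tFCI. Reads were present in all miKO libraries, and within each surgery the miKO and WT libraries did not overlap, with miKO lower. Total counts on genes ran from 7697864 to 9452222 per library, and 30.7% to 38.5% of read pairs were assigned to a gene. The microglial markers were abundant in every library. The summed level of 9 genes (Tmem119, P2ry12, Sall1, Siglech, Fcrls, Cx3cr1, Csf1r, Gpr34 and Olfml3) lay between 7325.5 and 29236 CPM. CPM values are counts scaled to the library's total on the genes tested, multiplied by its TMM normalisation factor. Replicate 1 of both tFCI groups stood apart from replicates 2 and 3 in the genes described here. Replicate 1 of every group was labelled batch 1 and replicates 2 and 3 batch 2, and no label says what the batch was. Leaving out Sparc, the other 34 genes summed to 2557 CPM in WT-tFCI replicate 1 against 812 and 900.4 CPM in replicates 2 and 3, and to 4408 CPM in miKO-tFCI replicate 1 against 1346 and 1432 CPM. In the Sham libraries the same sum ran from 68.8 to 86.9 CPM in WT and from 57.8 to 74.5 CPM in miKO. The miKO-Sham library of replicate 3 also differed from its group in markers of border-associated macrophages, the macrophages of vessels and meninges, with a summed level of 273.7 CPM against 56.4 and 51.3 CPM.

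RefSeq promoters (build GRCm38.p6, 250 bases before to 50 after the annotated start) were at hand for 23 of the 35 genes. The 4 printed here are those of Sparc, which was lower in miKO libraries, of Col6a3, which had the largest called difference between the Sham groups, and of Col1a2 and Col3a1, collagen genes that were called higher after tFCI. Capitals mark 3 short motifs searched on both strands. They are the CCAAT box, the TATA box with the letters TATAAA, and a core of binding sites of the myeloid factor PU.1 with the letters GAGGAA. The motifs did not overlap each other in these windows.
Sparc, chr11:55420031-55420330, minus strand: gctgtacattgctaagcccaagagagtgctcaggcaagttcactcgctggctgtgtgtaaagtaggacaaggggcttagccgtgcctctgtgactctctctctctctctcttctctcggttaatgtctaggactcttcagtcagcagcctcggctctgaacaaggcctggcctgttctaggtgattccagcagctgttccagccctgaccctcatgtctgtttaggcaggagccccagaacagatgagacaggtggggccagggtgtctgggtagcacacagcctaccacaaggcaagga
Col6a3, chr1:90843922-90844221, minus strand: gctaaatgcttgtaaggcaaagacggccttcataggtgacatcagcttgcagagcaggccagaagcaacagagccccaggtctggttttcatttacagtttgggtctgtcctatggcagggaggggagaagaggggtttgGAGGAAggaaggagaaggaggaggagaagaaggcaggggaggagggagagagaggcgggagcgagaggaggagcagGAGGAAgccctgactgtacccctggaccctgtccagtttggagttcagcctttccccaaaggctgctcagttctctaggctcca
Col1a2, chr6:4505368-4505667, plus strand: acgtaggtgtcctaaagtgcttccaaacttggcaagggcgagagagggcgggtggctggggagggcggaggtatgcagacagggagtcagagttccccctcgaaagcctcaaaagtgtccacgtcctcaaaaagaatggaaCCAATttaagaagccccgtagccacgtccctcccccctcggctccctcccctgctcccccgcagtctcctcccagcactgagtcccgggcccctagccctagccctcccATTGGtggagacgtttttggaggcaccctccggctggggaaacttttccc
Col3a1, chr1:45311288-45311587, plus strand: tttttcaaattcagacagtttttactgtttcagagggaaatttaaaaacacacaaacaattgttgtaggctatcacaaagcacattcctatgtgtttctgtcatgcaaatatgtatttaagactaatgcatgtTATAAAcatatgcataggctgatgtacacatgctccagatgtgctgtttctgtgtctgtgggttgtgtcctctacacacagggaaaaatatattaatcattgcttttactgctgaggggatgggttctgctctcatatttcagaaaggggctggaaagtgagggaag
The RefSeq starts of Sparc and Col1a2 lie inside the gene spans of GENCODE M21, the annotation used here for names and positions, so these windows belong to downstream starts of that annotation. CCAAT was present in 9 of the 23 genes and in 37.4% of all 32851 promoters of the same length, TATAAA in 4 of the 23 and in 13.6%, and GAGGAA in 11 of the 23 and in 28.3%. The Sparc window held none of the 3, the Col6a3 window held GAGGAA at 2 places, and the Col1a2 window held CCAAT at 2 places, once on each strand. These matches describe the letters only and say nothing of binding.

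After tFCI most of these genes were higher in the sorted microglia of both genotypes. In WT-tFCI vs. WT-Sham, 31 of 35 were called higher and 0 lower, where 20.9% of the 16451 genes tested were called higher and 11.7% lower. Calls needed an adjusted p (Benjamini-Hochberg over all genes tested) under 0.05 in edgeR's quasi-likelihood test and a log2 fold change beyond 0.58 either way. In miKO-tFCI vs. miKO-Sham, 34 were called higher and 1, Sparc, lower, where 21.9% of all genes were called higher and 13.9% lower. All tFCI libraries lay on one side of all Sham libraries for the 35 in miKO and for 31 in WT, where in miKO 26.5% of all genes were higher without overlap and 21.6% lower, and in WT 26.9% and 22.9%. DESeq2 gave 31 and 0 in WT and 34 and 1 in miKO, and at an unadjusted p under 0.05 the count of lower genes in WT was also 0. The median log2 fold change of the 35 genes was 5.02 in WT and 4.93 in miKO, against 0.02 and 0.03 over all genes. Of the 35, 21 reached 10 counts in all 3 libraries of a group only after tFCI, so they passed the filter on low counts through the group where they were high, and their calls are given as a description. Among the 14 that reached 10 counts in a Sham group, 10 were called higher in WT and 13 in miKO. Fn1, Col1a1, Col1a2, Bgn and Dcn reached this level in miKO-Sham but not in WT-Sham, and Col6a3 in WT-Sham but not in miKO-Sham. Of the genes that reached it in WT-Sham, Fbln1, Lamc1, Thbs1, Igfbp7 and Emilin1 were called higher in WT. Col6a3, Nid2, Postn and Sparc were not. The 2 tFCI comparisons do not share libraries with each other. In bulk samples a higher level of a gene cannot be split into more cells that express it and more RNA in each cell. Without batch 1, 31 genes were called higher and 1 lower in WT and 34 and 1 in miKO.

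**Figure D1:**
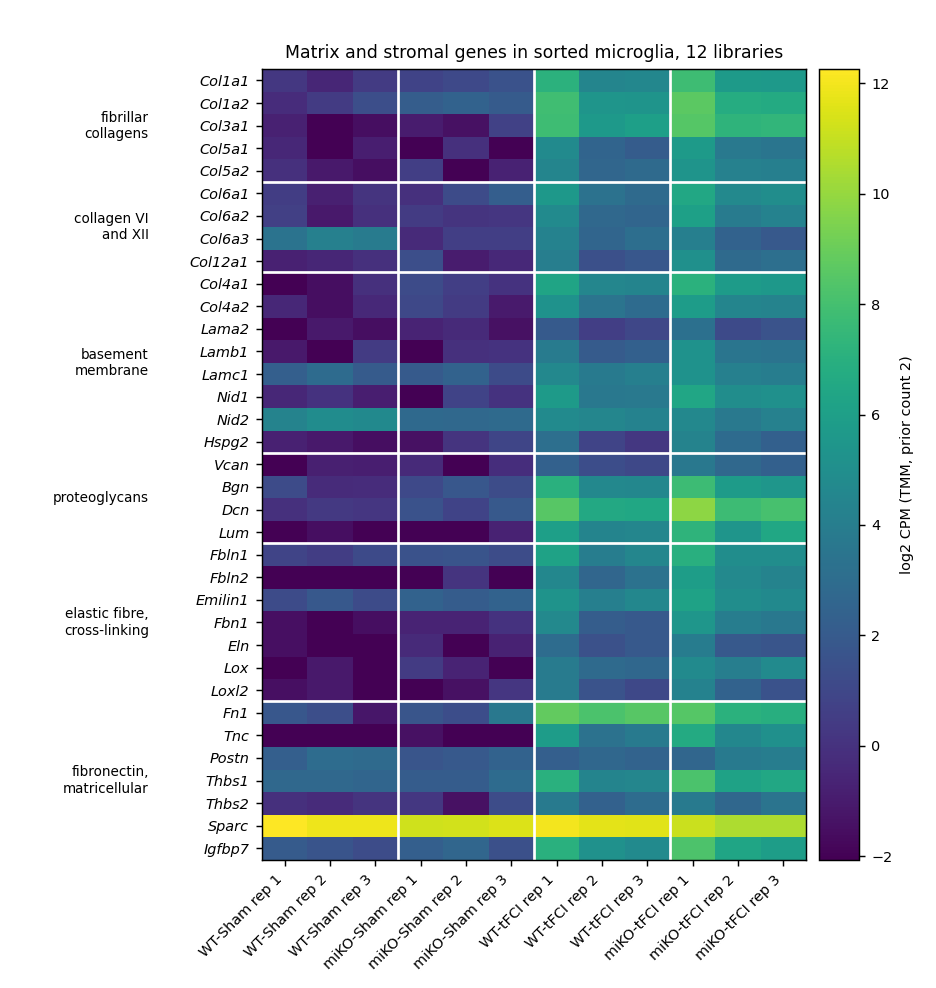
Heat map of the 35 genes (rows, grouped by role) in the 12 libraries (columns), as log2 CPM with a prior count of 2. Sparc is bright in every library, Nid2 and Col6a3 are dim in the miKO-Sham libraries, and most other genes are dim in all 6 Sham libraries and brightest in replicate 1 of the 2 tFCI groups.

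All 5 fibrillar collagens rose after tFCI in both genotypes. Col1a1, a chain of type I collagen, the main collagen of scar and skin, was 0.962, 0.448 and 1.13 CPM in WT-Sham, 1.53, 1.94 and 2.69 in miKO-Sham, 139.9, 22.05 and 23.9 in WT-tFCI and 228, 53.2 and 48.7 in miKO-tFCI. Col1a2, the partner chain, was 0.601, 1.12 and 2.36 CPM in WT-Sham, 4.17, 5.13 and 3.84 in miKO-Sham, 236, 42.2 and 41.3 in WT-tFCI and 402, 113 and 103 in miKO-tFCI. Col3a1, type III collagen, was 0.361, 0 and 0.103 CPM in WT-Sham, 0.278, 0.139 and 1.41 in miKO-Sham, 221, 49.3 and 64.0 in WT-tFCI and 353, 152 and 165 in miKO-tFCI. All WT-tFCI and miKO-tFCI libraries were above all Sham libraries for the 3 genes, and replicate 1 was the highest library within each tFCI group. The log2 fold changes after tFCI, each given ± SE, were in WT 5.83 ± 0.51, adjusted p = 7.38e-07 for Col1a1, 5.81 ± 0.56, adjusted p = 1.85e-06 for Col1a2 and 9.26 ± 0.52, adjusted p = 1.17e-08 for Col3a1. In miKO they were 5.41 ± 0.46, adjusted p = 7.62e-07, 5.27 ± 0.50, adjusted p = 1.91e-06 and 8.43 ± 0.45, adjusted p = 1.4e-08. In batch 2 alone the 3 log2 fold changes, in the same order, were 4.82, 4.56 and 9.70 in WT. In miKO they were 4.42, 4.56 and 7.58 there. Between the tFCI groups Col3a1 was called higher in miKO (1.19 ± 0.27, adjusted p = 0.0118), while Col1a1 (0.95 ± 0.32, adjusted p = 0.0792) and Col1a2 (1.10 ± 0.38, adjusted p = 0.0822) did not pass. Col5a1 and Col5a2, chains of type V collagen that regulates the width of collagen fibrils, followed the same course. Col5a1 was 0.481, 0 and 0.308 CPM in WT-Sham, 0, 0.694 and 0 in miKO-Sham, 27.05, 5.54 and 4.02 in WT-tFCI and 53.4, 12.9 and 11.2 in miKO-tFCI. Col5a2 was 0.721, 0.224 and 0.103 CPM in WT-Sham, 1.25, 0 and 0.384 in miKO-Sham, 22.02, 6.12 and 7.07 in WT-tFCI and 41.2, 18.6 and 16.9 in miKO-tFCI. Both rose after tFCI in both genotypes, and Col5a2 was called higher in miKO-tFCI than in WT-tFCI (1.25 ± 0.28, adjusted p = 0.0122) whereas Col5a1 was not (1.18 ± 0.42, adjusted p = 0.0942). Between the Sham groups the 5 fibrillar collagens had log2 fold changes from -0.12 to 2.02 and did not pass the test. Col1a1 and Col1a2 did not overlap between the Sham groups, all 3 miKO-Sham libraries being higher, where 17.0% of all genes had that order.

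The chains of collagens VI and XII fell into 2 patterns. Collagen VI forms beaded filaments from the products of Col6a1, Col6a2 and Col6a3, and collagen XII sits on collagen fibrils. Col6a1 was 1.20, 0.336 and 0.821 CPM in WT-Sham, 0.694, 2.08 and 4.35 in miKO-Sham, 46.7, 9.70 and 7.31 in WT-tFCI and 93.1, 25.6 and 31.1 in miKO-tFCI. Col6a2 was 1.32, 0.224 and 0.718 CPM in WT-Sham, 1.11, 0.832 and 0.897 in miKO-Sham, 27.3, 6.69 and 5.85 in WT-tFCI and 66.7, 14.6 and 18.9 in miKO-tFCI. Col12a1 was 0.361, 0.448 and 0.718 CPM in WT-Sham, 2.36, 0.277 and 0.512 in miKO-Sham, 16.8, 2.42 and 3.29 in WT-tFCI and 34.1, 7.16 and 8.77 in miKO-tFCI. These 3 were between 0.224 and 4.35 CPM in the Sham libraries and rose after tFCI in both genotypes, with log2 fold changes in WT of 4.48, 3.98 and 3.38. Col6a2 was the member called between the tFCI groups, higher in miKO (1.36 ± 0.27, adjusted p = 0.00541). Col6a3 differed from its partner chains. It was 10.5, 18.0 and 14.7 CPM in WT-Sham, 0.555, 1.25 and 1.28 in miKO-Sham, 18.9, 5.77 and 8.53 in WT-tFCI and 17.3, 5.28 and 3.58 in miKO-tFCI. All 3 miKO-Sham libraries lay below all other libraries, and the WT-Sham libraries overlapped both tFCI groups. In Sham it fell in miKO by a log2 fold change of -3.85 ± 0.58, adjusted p = 0.000259, and in miKO it rose after tFCI (2.87 ± 0.59, adjusted p = 0.00141). In WT its change after tFCI did not pass (-0.59 ± 0.46, adjusted p = 0.326), and it went opposite ways in the 2 batches: the level was higher after tFCI in batch 1 and lower in batch 2, where the fit without batch 1 called it lower (log2 fold change -1.19, adjusted p = 0.0112). The 2 tFCI groups overlapped (-0.39 ± 0.46, adjusted p = 0.635).

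**Figure D2:**
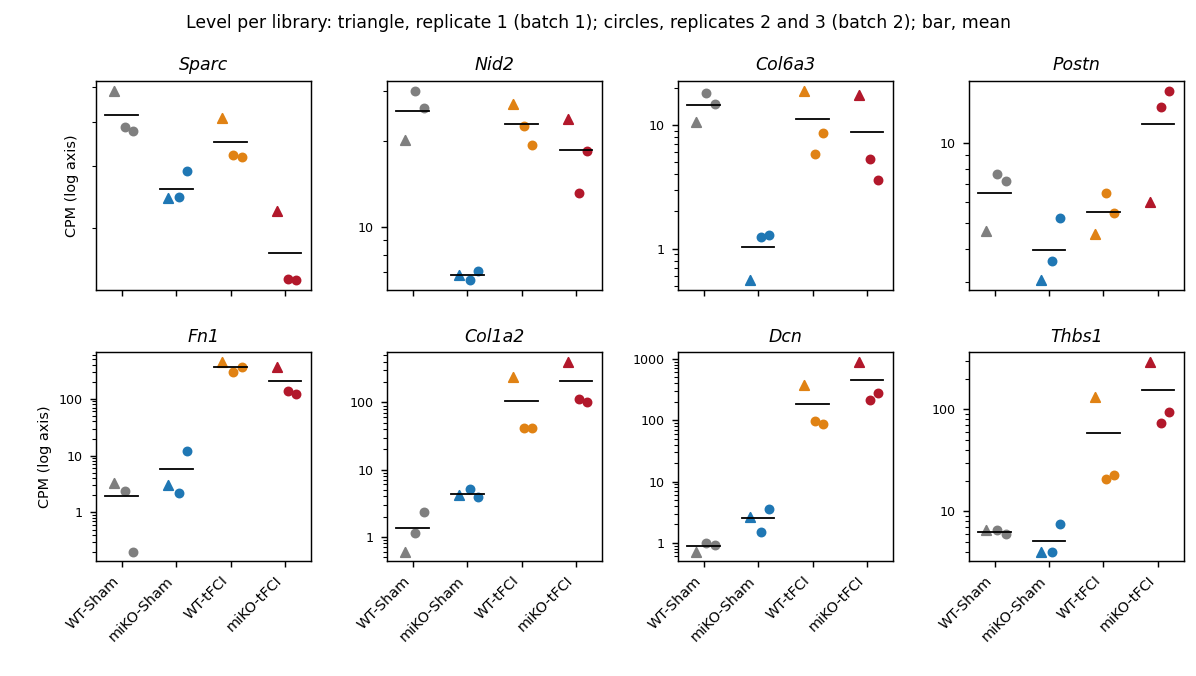
CPM per library on log axes for 8 of the genes in the 4 groups, with replicate 1 (batch 1) as triangles, replicates 2 and 3 (batch 2) as circles and the group mean as a bar. Nid2 and Col6a3 are lowest in miKO-Sham, where Col6a3 lies between 0.555 and 1.28 CPM, Sparc is lowest in miKO-tFCI, and Fn1, Col1a2, Dcn and Thbs1 rise after tFCI with the triangle highest in both tFCI groups.

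Basement membrane genes rose after tFCI with a single exception in WT. Col4a1 and Col4a2 encode the chains of the collagen IV network around vessels. Col4a1 was 0, 0.112 and 0.718 CPM in WT-Sham, 2.08, 1.25 and 0.768 in miKO-Sham, 79.0, 22.4 and 20.8 in WT-tFCI and 138, 56.2 and 47.0 in miKO-tFCI. Col4a2 was 0.481, 0.112 and 0.513 CPM in WT-Sham, 1.80, 1.11 and 0.256 in miKO-Sham, 37.6, 10.6 and 7.43 in WT-tFCI and 58.1, 21.5 and 20.02 in miKO-tFCI. Their tFCI libraries were all above their Sham libraries, and both were called higher in miKO-tFCI than in WT-tFCI, Col4a1 by 1.08 ± 0.26, adjusted p = 0.0184 and Col4a2 by 0.98 ± 0.27, adjusted p = 0.0326. Nid1 and Nid2 encode nidogens, which link laminin to collagen IV, and they behaved differently. Nid1 was 0.481, 0.784 and 0.308 CPM in WT-Sham, 0, 1.53 and 0.768 in miKO-Sham, 53.0, 12.5 and 13.04 in WT-tFCI and 83.5, 31.0 and 34.7 in miKO-tFCI. Nid2 was 20.2, 30.1 and 26.2 CPM in WT-Sham, 6.80, 6.52 and 7.04 in miKO-Sham, 27.05, 22.6 and 19.4 in WT-tFCI and 24.1, 13.2 and 18.5 in miKO-tFCI. Nid1 rose after tFCI in WT (5.40 ± 0.59, adjusted p = 6.45e-06) and in miKO (5.86 ± 0.56, adjusted p = 2.23e-06) and was not called between genotypes. Nid2 was lower in all miKO-Sham libraries than in any other library, with a fall against WT-Sham of -1.92 ± 0.24, adjusted p = 4.59e-05. After tFCI Nid2 did not pass in WT (-0.17 ± 0.22, adjusted p = 0.578), rose in miKO (1.44 ± 0.24, adjusted p = 0.000265), and the tFCI groups overlapped (-0.31 ± 0.22, adjusted p = 0.398). Of the exonic bases of Nid2, 8.45% are shared with Rtraf on the other strand, and the library kit does not mark strand, so reads there cannot be assigned. Lamc1, the laminin gamma 1 chain of most basement membranes, was 4.69, 7.39 and 3.90 CPM in WT-Sham, 3.75, 5.27 and 2.05 in miKO-Sham, 23.9, 14.2 and 16.9 in WT-tFCI and 38.2, 17.8 and 16.1 in miKO-tFCI. It rose after tFCI in both genotypes (1.73 ± 0.34, adjusted p = 0.0012 in WT and 2.64 ± 0.36, adjusted p = 5.99e-05 in miKO) and was not called between them. The laminin chains Lama2 and Lamb1 and the perlecan gene Hspg2 were at or under 1.67 CPM in every Sham library and between 0.975 and 37.0 CPM in the tFCI libraries, rose in both genotypes, and were not called between genotypes.

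The proteoglycans were among the largest changes. Dcn encodes decorin, a small proteoglycan that binds collagen fibrils and is abundant in meningeal and perivascular fibroblasts. Dcn was 0.721, 1.01 and 0.923 CPM in WT-Sham, 2.64, 1.53 and 3.59 in miKO-Sham, 376, 96.6 and 88.0 in WT-tFCI and 893, 215 and 273 in miKO-tFCI. Lum, lumican of the same family, was 0, 0.112 and 0 CPM in WT-Sham, 0, 0 and 0.384 in miKO-Sham, 65.0, 20.7 and 22.4 in WT-tFCI and 149.5, 42.1 and 89.5 in miKO-tFCI. Bgn, biglycan, was 2.04, 0.560 and 0.616 CPM in WT-Sham, 1.94, 3.33 and 2.18 in miKO-Sham, 129.6, 24.2 and 23.8 in WT-tFCI and 216, 54.9 and 43.1 in miKO-tFCI. For all 3 the tFCI libraries were far above the Sham libraries, and Lum was close to undetected in Sham, with 1 count over the 3 WT-Sham libraries and 3 over the miKO-Sham libraries. The ratio of Lum after tFCI to Sham was therefore 969.4 in WT, with a 95% exact counting interval from 173.5 to 38330, and 722 in miKO, from 247 to 3501. Dcn rose by 7.45 ± 0.44, adjusted p = 1.64e-08 in WT and by 7.23 ± 0.40, adjusted p = 1.55e-08 in miKO. Dcn (1.34 ± 0.28, adjusted p = 0.00797) and Lum (1.46 ± 0.28, adjusted p = 0.00434) were called higher in miKO-tFCI than in WT-tFCI. Bgn did not pass (0.90 ± 0.29, adjusted p = 0.0634). Vcan, versican, a large proteoglycan of the provisional matrix, was 0, 0.336 and 0.308 CPM in WT-Sham, 0.555, 0 and 0.640 in miKO-Sham, 4.91, 2.31 and 1.83 in WT-tFCI and 12.7, 6.54 and 4.82 in miKO-tFCI. It rose after tFCI in both genotypes (3.54 ± 0.76, adjusted p = 0.00202 in WT and 4.21 ± 0.69, adjusted p = 0.000245 in miKO), and was not called between genotypes (1.41 ± 0.54, adjusted p = 0.116).

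Of the elastic fibre and cross-linking genes all 7 rose after tFCI in both genotypes. Fbln1, fibulin 1, a protein of elastic fibres and basement membranes, was 1.56, 1.23 and 1.95 CPM in WT-Sham, 2.64, 2.91 and 2.18 in miKO-Sham, 71.6, 16.0 and 22.4 in WT-tFCI and 127, 31.0 and 31.3 in miKO-tFCI. Emilin1, a glycoprotein at the interface of elastin and microfibrils, was 2.04, 3.47 and 2.05 CPM in WT-Sham, 5.14, 4.02 and 5.12 in miKO-Sham, 39.6, 17.0 and 23.1 in WT-tFCI and 72.9, 30.5 and 26.6 in miKO-tFCI. Fbln2, fibulin 2, was 0, 0 and 0 CPM in WT-Sham, 0, 0.832 and 0 in miKO-Sham, 23.8, 6.002 and 9.87 in WT-tFCI and 60.0, 25.4 and 19.9 in miKO-tFCI. Fbln1 and Emilin1 had counts in every Sham library and rose in WT by log2 fold changes of 4.28 and 3.29, while Fbln2 had no count in WT-Sham, so it was at least 118-fold higher in WT-tFCI (against a floor of 3 counts over the group). Fbn1, fibrillin 1 of the microfibrils, was 0.1202, 0 and 0.103 CPM in WT-Sham, 0.416, 0.416 and 0.768 in miKO-Sham, 25.3, 4.16 and 3.66 in WT-tFCI and 43.9, 15.7 and 12.5 in miKO-tFCI. Lox, the lysyl oxidase that cross-links collagen and elastin, was 0, 0.224 and 0 CPM in WT-Sham, 1.11, 0.416 and 0 in miKO-Sham, 14.4, 7.16 and 6.46 in WT-tFCI and 27.3, 16.2 and 27.6 in miKO-tFCI. Fbln2 (1.44 ± 0.39, adjusted p = 0.0354), Fbn1 (1.39 ± 0.35, adjusted p = 0.0209) and Lox (1.43 ± 0.39, adjusted p = 0.0306) were called higher in miKO-tFCI, and Lox was the gene of the 35 whose 3 miKO-tFCI libraries were all above the 3 WT-tFCI libraries. For Fbn1, 20.1% of exonic bases are shared with Gm9913 on the other strand. Eln, elastin, and the lysyl oxidase-like gene Loxl2 were under 1 CPM in all Sham libraries, between 1.83 and 19.2 CPM after tFCI, and not called between genotypes.

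Fibronectin and the matricellular genes differed among themselves in level and in their change after tFCI. Fn1, fibronectin, which macrophages can also express, was 3.25, 2.35 and 0.205 CPM in WT-Sham, 3.05, 2.22 and 12.3 in miKO-Sham, 446, 296 and 365 in WT-tFCI and 358, 136 and 122 in miKO-tFCI. It rose after tFCI by 7.65 ± 0.64, adjusted p = 4.59e-07 in WT and by 4.93 ± 0.55, adjusted p = 9.93e-06 in miKO. It was lower in miKO-tFCI in both batches, at 358 against 446 CPM in batch 1 and 136 and 122 against 296 and 365 CPM in batch 2, a difference that did not pass (-0.96 ± 0.44, adjusted p = 0.183). Thbs1, thrombospondin 1, a regulator of angiogenesis and TGF-beta activation, was 6.49, 6.50 and 5.95 CPM in WT-Sham, 4.03, 4.02 and 7.43 in miKO-Sham, 132, 20.5 and 22.8 in WT-tFCI and 291, 73.9 and 93.6 in miKO-tFCI. Its Sham libraries overlapped between genotypes (-0.26 ± 0.55, adjusted p = 0.799), it rose after tFCI in WT (2.76 ± 0.48, adjusted p = 0.000411) and in miKO (4.57 ± 0.50, adjusted p = 7.77e-06), and it was called higher in miKO-tFCI (1.55 ± 0.40, adjusted p = 0.0253). In batch 2 alone the log2 fold change of Thbs1 after tFCI was 1.80 in WT and 3.83 in miKO. Igfbp7, an IGF-binding protein abundant in vascular cells, was 3.97, 2.91 and 2.15 CPM in WT-Sham, 4.58, 6.10 and 2.43 in miKO-Sham, 129, 35.4 and 27.9 in WT-tFCI and 301, 83.1 and 59.4 in miKO-tFCI. Tnc, tenascin C, typical of injured tissue, was 0, 0 and 0 CPM in WT-Sham, 0.139, 0 and 0 in miKO-Sham, 57.1, 9.81 and 14.3 in WT-tFCI and 105, 23.8 and 34.98 in miKO-tFCI. Both rose after tFCI in both genotypes and were called higher in miKO-tFCI, Igfbp7 by 1.19 ± 0.31, adjusted p = 0.0237 and Tnc by 1.14 ± 0.21, adjusted p = 0.00505. Tnc had no count in WT-Sham and 1 in miKO-Sham, so in WT it was at least 242-fold higher after tFCI. Of the exonic bases of Igfbp7, 7.03% overlap Polr2b on the other strand. Thbs2, thrombospondin 2, was between 0.139 and 2.18 CPM in Sham and between 4.96 and 14.0 CPM after tFCI, and it rose in both genotypes.

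Postn, periostin, a matricellular protein that binds collagen and fibronectin, followed neither pattern. It was 4.69, 7.62 and 7.18 CPM in WT-Sham, 3.05, 3.61 and 5.25 in miKO-Sham, 4.55, 6.46 and 5.48 in WT-tFCI and 5.99, 13.6 and 15.7 in miKO-tFCI. Replicate 1 was not the highest tFCI library for Postn in either genotype. It did not change after tFCI by this test in WT (-0.22 ± 0.28, adjusted p = 0.569), rose in miKO (1.50 ± 0.29, adjusted p = 0.000777), and was called higher in miKO-tFCI than in WT-tFCI (1.02 ± 0.28, adjusted p = 0.0306), although the WT-tFCI and miKO-tFCI libraries overlapped through miKO-tFCI replicate 1. Its Sham difference did not pass (-0.70 ± 0.29, adjusted p = 0.113).

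Sparc, also called osteonectin, a collagen-binding matricellular protein, was the most abundant of the genes by far. It was 4892, 3867 and 3758 CPM in WT-Sham, 2431, 2444 and 2898 in miKO-Sham, 4098, 3216 and 3171 in WT-tFCI and 2240.4, 1437 and 1428 in miKO-tFCI. Within each surgery the miKO libraries were all below the WT libraries, and within WT the Sham and tFCI libraries overlapped. Sparc fell in miKO by -0.66 ± 0.16, adjusted p = 0.0108 in Sham and by -1.05 ± 0.17, adjusted p = 0.00116 after tFCI. After tFCI it fell in miKO (-0.65 ± 0.16, adjusted p = 0.00586) and did not pass in WT (-0.26 ± 0.16, adjusted p = 0.234). The fall in miKO-tFCI vs. WT-tFCI was called in all 21 alternatives to the fit, while the Sham fall was lost without miKO-Sham replicate 1 (log2 fold change -0.48, adjusted p = 0.0665) and in batch 2 alone (-0.52, short of the fold limit), and the fall after tFCI in miKO was lost in 3 alternatives: without miKO-Sham replicate 3 (-0.50) and with a minimum of 10 counts in every library (-0.57), both short of the fold limit, and on the 2 miKO groups alone (-0.66, adjusted p = 0.0648). Between genotypes microglial markers were lower too: of the 9, 5 were called lower in miKO-tFCI vs. WT-tFCI with a median log2 fold change of -0.78, and 4 lower and 1 higher in miKO-Sham vs. WT-Sham with a median of -0.52. Among them Cx3cr1, a copy of which CreER replaces in miKO, was lower by -1.84 and -1.68. After tFCI in WT, where Sparc was not called, 7 of the 9 were called lower with a median of -1.11, and in miKO all 9 with a median of -1.25. The part of these markers in the Sparc difference was not tested.

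Per kilobase of exon, which allows genes to be compared, the order of levels changed with surgery below Sparc. In WT-Sham, Sparc stood at 1102 ± 165 CPM per kb (SD, n = 3), followed by Nid2 at 4.93 ± 0.967, Igfbp7 at 2.49 ± 0.753, Col6a3 at 1.20 ± 0.318 and Thbs1 at 1.04 ± 0.0517. Nid2 lay above Igfbp7 in range, and Col6a3 and Thbs1 overlapped each other. In miKO-Sham the order was Sparc at 684 ± 70.3, Igfbp7 at 3.62 ± 1.53, Nid2 at 1.31 ± 0.0507 and Emilin1 at 0.964 ± 0.129 CPM per kb. After tFCI Igfbp7, Dcn and either Fn1 or Lum came next: in WT-tFCI Sparc was at 923 ± 138, Igfbp7 at 53.0 ± 46.6, Dcn at 32.0 ± 28.1, Fn1 at 31.6 ± 6.401 and Lum at 14.7 ± 10.3 CPM per kb. In miKO-tFCI Sparc was at 449 ± 123, Igfbp7 at 122 ± 110.1, Dcn at 78.9 ± 64.4 and Lum at 38.3 ± 21.99 CPM per kb. Below Sparc the neighbours in the tFCI orders overlapped.

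Between the tFCI groups the common direction was up in miKO. In miKO-tFCI vs. WT-tFCI, 14 genes were called higher (Tnc, Fbln2, Col3a1, Col4a1, Col4a2, Col5a2, Col6a2, Dcn, Lum, Postn, Thbs1, Igfbp7, Fbn1 and Lox) and 1 lower (Sparc), where 4.08% of all genes were called higher and 4.71% lower. The log2 fold changes of the 35 had a median of 1.10, against 0.04 over all genes, and ran from -1.05 for Sparc to 1.66 for Hspg2, which was not called. The count rested on the batch term and on single libraries. Without a batch term, 0 were called higher by edgeR and 1 lower, DESeq2 with the batch term called 8 and 1, and a fit on the 2 tFCI groups alone called 26 and 2. Leaving out a library gave totals from 4 (without WT-tFCI replicate 3) through 5 (without WT-tFCI replicate 2), 8 (without miKO-tFCI replicate 1) and 9 (without miKO-tFCI replicate 2) to 23 (without miKO-Sham replicate 1). Within batches the direction held for most genes. In batch 1, with a single library a group, and in batch 2 by the mean, 31 of the 35 genes were higher in miKO-tFCI, with a median ratio of 1.84 in batch 1 and 2.44 in batch 2. For 27 genes miKO was higher in batch 1 and both miKO libraries of batch 2 were above both WT libraries, where 23.6% of all genes had that order. The 4 others, Fn1, Col6a3, Nid2 and Sparc, were lower in both batches with both libraries of batch 2 below, where 19.4% of all genes had that order. Pooled over batches without adjustment, 1 gene (Lox) had all miKO-tFCI libraries above all WT-tFCI libraries and 1 (Sparc) all below, where 9.58% and 13.3% of all genes did.

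**Figure D3:**
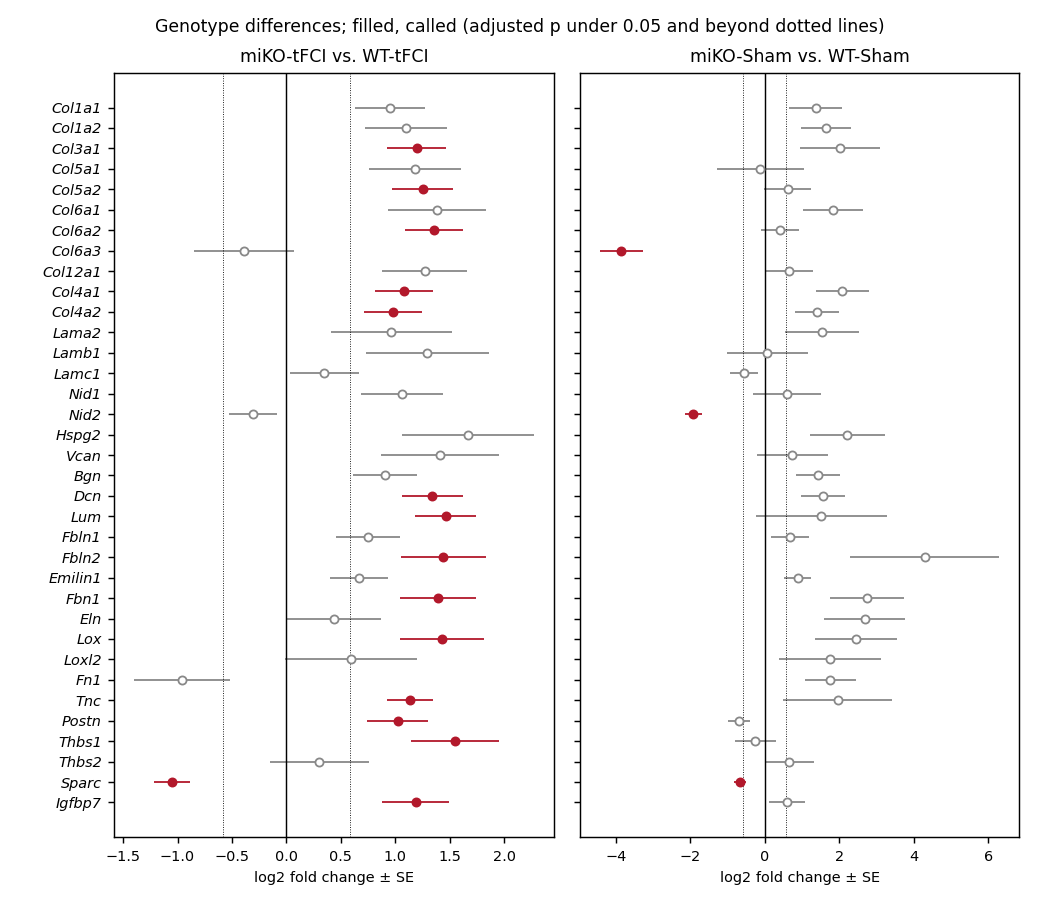
Log2 fold change ± SE of each of the 35 genes for miKO-tFCI vs. WT-tFCI (left) and miKO-Sham vs. WT-Sham (right), with filled points for called genes and dotted lines at 0.58 either way. On the left 14 filled points lie right of 0 and Sparc at -1.05, and on the right the filled points are Col6a3 at -3.85, Nid2 at -1.92 and Sparc at -0.66.

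**Figure D4:**
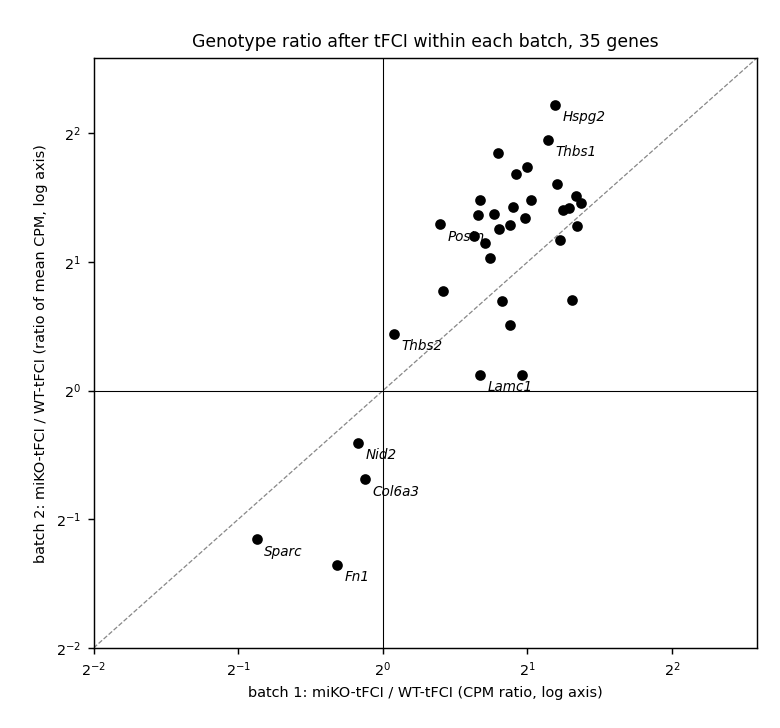
Ratio of miKO-tFCI to WT-tFCI level for each gene in batch 1 (x axis, a library per group) and batch 2 (y axis, ratio of the means of 2 libraries per group), both on log axes, with the dashed line at equal ratios. Of the 35 points 31 lie in the upper right and the 4 in the lower left are Sparc, Fn1, Col6a3 and Nid2.

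Few of these genes were called between genotypes in Sham. In miKO-Sham vs. WT-Sham 3 genes were called lower, Col6a3, Nid2 and Sparc, and 0 higher by edgeR, where 6.80% of all genes were called lower and 8.58% higher. The log2 fold changes of 28 of the 35 genes were above 0, with a median of 1.37, against 0.04 over all genes. At an unadjusted p under 0.05, 12 were higher and 4 lower, and DESeq2 called 2 higher and 3 lower. The total of called genes was 12 without miKO-Sham replicate 1 (10 higher and 2 lower), 6 without WT-Sham replicate 3 (3 and 3) and 10 in batch 2 alone (8 and 2). Col6a3 and Nid2 were called lower in every one of these. In Sham, 21 of the 35 genes did not reach 10 counts in all libraries of either group, so small differences in them were not detectable at this depth. For 7 genes (Fbln1, Col1a1, Col1a2, Col4a1, Dcn, Emilin1 and Fbn1) all miKO-Sham libraries were above all WT-Sham libraries, and for Col6a3, Nid2 and Sparc all were below, where 17.0% and 16.2% of all genes were.

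The effect of tFCI differed between genotypes by an interaction term for 3 of the 35 genes, all with the more positive change in miKO, where 1.25% of all genes were called in that direction and 2.57% in the other. They were Col6a3 (3.46 ± 0.74, adjusted p = 0.0175), Nid2 (1.61 ± 0.32, adjusted p = 0.0116) and Postn (1.72 ± 0.40, adjusted p = 0.0272). All 3 had lower means in miKO-Sham than in WT-Sham. The means of the tFCI groups were 11.1 ± 6.93 CPM (SD, n = 3) in WT and 8.74 ± 7.504 in miKO for Col6a3, and 23.0 ± 3.85 and 18.6 ± 5.43 CPM for Nid2. At an unadjusted p under 0.05, 4 genes had a positive and 1 a negative interaction, and DESeq2 called 3 and 0. Col6a3 lost its call without miKO-Sham replicate 1, WT-tFCI replicate 2 or miKO-tFCI replicate 1 (adjusted p from 0.0521 to 0.0591) and Postn in 7 of the fits that left out a library (0.0552 to 0.0957), so leaving out WT-tFCI replicate 2 left Nid2 alone. Fn1, with a negative interaction that did not pass (-2.72 ± 0.83, adjusted p = 0.0906), passed in batch 2 alone (log2 fold change -3.95, adjusted p = 0.0257). Thbs1, with a positive interaction that did not pass (1.81 ± 0.68, adjusted p = 0.171), also passed in batch 2 alone (2.02, adjusted p = 0.00993).

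The genes varied together among replicates after tFCI, chiefly in the distance of replicate 1 from replicates 2 and 3. No such pattern was seen in Sham, where low counts limit what could be seen. The level in replicate 1 was more than 2 times the mean of replicates 2 and 3 for 29 of 35 genes in WT-tFCI and for 30 in miKO-tFCI, as it was for 2142 and 2574 of all 16451 genes. The median ratio was 3.72 in WT-tFCI and 3.28 in miKO-tFCI, against 1.03 and 0.984 over all genes. In 27 genes this held in both groups, where 9.70% of all genes did so. The genes under the ratio in both groups were Nid2, Postn and Sparc, with Sparc at 1.28 in WT-tFCI and 1.56 in miKO-tFCI, Nid2 at 1.29 and 1.52, and Postn at 0.761 and 0.409. Fn1 was at 1.35 in WT-tFCI and 2.77 in miKO-tFCI. Over the 12 libraries, the deviations of log2 CPM from the group mean had a median pairwise Pearson correlation of 0.607 across the 595 gene pairs, against 0.00 for all genes. All pairs share the same libraries, so this is a description. In the 6 tFCI libraries alone the median was 0.931 with 94.1% of pairs above 0.5, and in the 6 Sham libraries it was 0.011 with 19.3% above 0.5, where the shares for all genes were 26.0% and 23.0%. In Sham, 21 of the 35 genes did not reach 10 counts in all libraries of either group, so counting noise could hide shared variation there. Without replicate 1 of both tFCI groups the median fell to 0.003, with 16.1% of pairs above 0.5 against 16.5% for all genes. Of the 10 libraries left, 6 were Sham, so the same limit applies to those 6. Between the tFCI libraries left, the genes showed no common shift. The ratio of replicate 3 to replicate 2 ran from 0.603 (Hspg2) to 1.64 (Fbln2) in WT-tFCI. In miKO-tFCI that ratio ran from 0.528 (Loxl2) to 2.13 (Lum), with genes above and below 1 in both groups. Whether replicate 1 stood apart through its batch or its mice cannot be told apart.

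**Figure D5:**
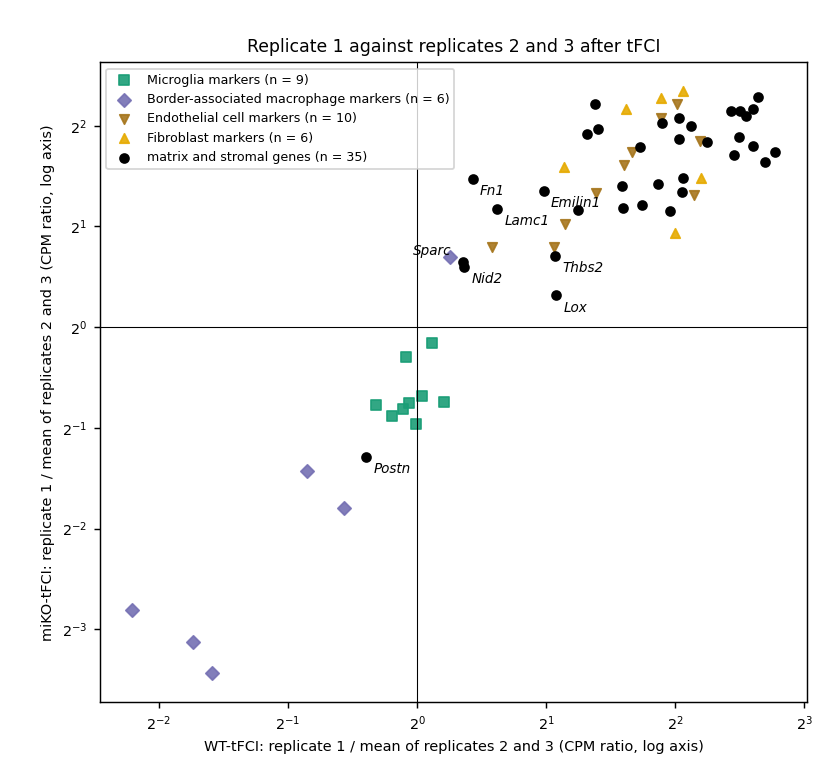
Ratio of replicate 1 to the mean of replicates 2 and 3 in WT-tFCI (x axis) and miKO-tFCI (y axis), both on log axes, for the 35 genes (black) and for marker genes of fibroblasts, endothelial cells, microglia and border-associated macrophages. Most black points lie above 2 in both groups among the fibroblast and endothelial markers, whereas microglial markers lie between 0.803 and 1.15 in WT-tFCI and between 0.513 and 0.896 in miKO-tFCI. Astrocyte markers, which are not drawn, were above 2 in both groups for 6 of 7.

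Ratios between genes within a library bear on whether they moved as a unit. The level of Col1a2 over Col1a1 stayed between 1.68 and 2.13 in the 6 tFCI libraries, a spread of 1.27-fold, while each gene alone differed several-fold between them. Col3a1 over Col1a1 ran from 1.55 to 3.39, with replicate 1 lowest in both groups (1.58 in WT-tFCI and 1.55 in miKO-tFCI). Dcn over Col1a1 ran from 2.69 to 5.61 and Col4a1 over Col1a1 from 0.565 to 1.06. Fn1 over Col1a1 ran from 1.57 to 15.3 and Sparc over Col1a1 from 9.82 to 146, so these 2 did not keep a fixed ratio to type I collagen.

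Markers of other cell types moved with these genes. Of 10 fibroblast markers 6 passed the filter, 4 of them were called higher after tFCI in WT and 6 in miKO, and 4 were called higher in miKO-tFCI than in WT-tFCI. Over all genes, 20.9% were called higher after tFCI in WT and 21.9% in miKO, and 4.08% in miKO-tFCI vs. WT-tFCI. Pdgfra had 7 counts over WT-Sham and 15 over miKO-Sham, and the endothelial marker Emcn 0 and 2. Such markers passed the filter through the tFCI libraries, so their calls are given as a description. The summed level of the fibroblast markers was 55.6 to 80.1 CPM in WT-Sham, 27.6 to 32.0 in miKO-Sham, 65.4 to 223 in WT-tFCI and 135 to 449 in miKO-tFCI, with Serpinf1 making up most of it in Sham. Pdgfra, the receptor that marks fibroblasts and oligodendrocyte precursors, went from 0.251 ± 0.257 to 10.4 ± 9.04 CPM (SD, n = 3) in WT and from 0.683 ± 0.612 to 27.3 ± 11.6 CPM in miKO. Of the defining fibroblast markers Dpt, Clec3b, Igf2 and Dpep1 stayed too low to be tested, at or under 1.76 CPM in every library, and Dpt was at 0 in all WT-tFCI libraries. Replicate 1 exceeded the mean of the others 3.22-fold in WT-tFCI and 3.17-fold in miKO-tFCI for the fibroblast sum, and 3.10-fold and 2.86-fold for the sum of 10 endothelial markers. In both tFCI groups, replicate 1 was above 2 times the mean of the others for 5 of 6 fibroblast and 8 of 10 endothelial markers tested. The same held for 6 of 7 astrocyte, 4 of 6 monocyte, 2 of 5 mural cell, 1 of 5 oligodendrocyte and 1 of 4 neutrophil markers. It held for 0 neuronal, microglial and border-associated macrophage markers, where 9.70% of all genes did so. The endothelial sum ran from 25.3 to 32.5 CPM in WT-Sham, from 17.0 to 21.2 in miKO-Sham, from 59.3 to 185 in WT-tFCI and from 106 to 306 in miKO-tFCI, and 8 and 10 of the 10 were called higher after tFCI, with Emcn at 0 in all WT-Sham libraries. Within batches the miKO-tFCI to WT-tFCI ratio was 2.01 and 2.04 for the fibroblast sum in batches 1 and 2, 1.66 and 1.80 for the endothelial sum, 2.05 and 1.29 for astrocyte markers and 1.38 and 0.979 for mural cell markers. It was 2.91 and 4.501 for monocyte markers, 1.78 and 2.72 for border-associated macrophage markers and 0.469 and 0.722 for microglial markers. The mural cell and astrocyte sums joined genes that went opposite ways between the tFCI groups. Among mural cell markers Cspg4 was called lower in miKO-tFCI (-2.89 ± 0.32, adjusted p = 0.000374) and Pdgfrb higher (1.53 ± 0.43, adjusted p = 0.036). Of 7 astrocyte markers 1 was called lower, Slc1a3 (-0.75 ± 0.16, adjusted p = 0.00813), and 3 higher, among them Gfap (1.60 ± 0.26, adjusted p = 0.0017) and Gja1 (1.54 ± 0.34, adjusted p = 0.011).

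The other marker lists varied. After tFCI 20.9% of all genes were called higher and 11.7% lower in WT, and 21.9% and 13.9% in miKO. Mural cell markers, 5 of 10 tested, were all called higher after tFCI in both genotypes with sums of 3.28 to 5.89 CPM in WT-Sham, 4.87 to 8.60 in miKO-Sham, 40.1 to 72.8 in WT-tFCI and 41.5 to 100.6 in miKO-tFCI. Among them Cspg4 had 0 counts in both Sham groups, and Rgs5 had 0 in WT-Sham and 8 in miKO-Sham. Both passed the filter through the tFCI libraries, so their calls are given as a description. Much of the WT-tFCI sum was Cspg4, also a gene of oligodendrocyte precursors, at 25.2 ± 4.96 CPM (SD, n = 3) after tFCI in WT and at 3.36 ± 1.05 CPM in miKO, and the smooth muscle gene Myh11 was at or under 0.366 CPM throughout. Of 7 astrocyte markers 4 were called higher and 1 lower after tFCI in WT and 6 and 1 in miKO, Gfap going from 0.326 to 46.3 CPM in WT and from 1.68 to 142 CPM in miKO. Astrocyte sums were 181 to 197 CPM in WT-Sham, 112 to 137 in miKO-Sham, 169 to 288 in WT-tFCI and 216 to 589 in miKO-tFCI, Slc1a3 giving most of the Sham level. Monocyte markers summed to 72.9 to 205 CPM in WT-tFCI and 298 to 597 in miKO-tFCI, against 13.1 to 87.7 in WT-Sham and 52.9 to 102 in miKO-Sham, and their replicate 1 was 2.72-fold and 1.76-fold the others after tFCI. Replicate 1 was 5.36-fold the others in WT-Sham and 0.691-fold in miKO-Sham, so its excess in monocyte markers was not limited to tFCI. Border-associated macrophage markers ran the other way, with replicate 1 at 0.597 and 0.389 of the mean of the others in WT-tFCI and miKO-tFCI and sums of 92.2 to 120.3 CPM in WT-Sham, 141 to 247 in WT-tFCI and 251 to 739 in miKO-tFCI. Oligodendrocyte markers were called higher for 4 of 5 tested and lower for 1 in WT, and higher for 4 in miKO, with sums of 76.4 to 92.3 CPM in Sham and 82.1 to 182 CPM after tFCI. Of 3 neuronal markers tested 1 was called higher in each genotype and 1 lower in miKO, at sums at or under 15.7 CPM. Of 4 neutrophil markers tested 1 was called lower in WT after tFCI, and 2 higher and 1 lower in miKO. The sums were 607 to 1062 CPM in WT-Sham, 867 to 992 in miKO-Sham, 451 to 496 in WT-tFCI and 727 to 886 in miKO-tFCI. The gene called lower was Csf3r, which gave most of the sum in WT-Sham (mean 565 CPM) and WT-tFCI (mean 352 CPM). Between the tFCI groups 3 of the 4 were called higher in miKO and 0 lower, where 4.08% of all genes were called higher and 4.71% lower. They were S100a8 (2.30 ± 0.67, adjusted p = 0.0422), S100a9 (2.24 ± 0.66, adjusted p = 0.0452) and Retnlg (2.57 ± 0.61, adjusted p = 0.0162). The part of any of these cell types in the levels of the matrix genes was not tested.

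Genes of the same pathways that were not among the 35 gave a mixed picture. Of 40 other matrix genes tested, 34 were called higher and 1 lower after tFCI in WT and 35 and 2 in miKO, and 8 were called higher in miKO-tFCI vs. WT-tFCI. Over all genes, 20.9% were called higher and 11.7% lower after tFCI in WT, and 21.9% and 13.9% in miKO. Between the tFCI groups the shares were 4.08% higher and 4.71% lower in miKO. Ecm1, extracellular matrix protein 1, went from 0.926 ± 0.609 to 92.3 ± 26.5 CPM (SD, n = 3) in WT and from 4.52 ± 2.46 to 224 ± 46.2 CPM in miKO, and was called higher in miKO in Sham (log2 fold change 2.30 ± 0.46, adjusted p = 0.00271) and after tFCI (1.29 ± 0.25, adjusted p = 0.00478). Tgfbi, a TGF-beta-induced matrix protein that macrophages express, rose in WT (2.18 ± 0.29, adjusted p = 4.74e-05) and in miKO (2.80 ± 0.30, adjusted p = 6.95e-06). Of 19 genes of collagen synthesis and export, 12 were called higher and 2 lower in WT after tFCI, 11 and 2 in miKO, and 2 and 2 in miKO-tFCI vs. WT-tFCI. Their sum, mostly of enzymes that all cells use, was 1607.5 to 1717 CPM in Sham and 2204.5 to 2460 CPM after tFCI, with no distance of replicate 1 (1.02 and 0.968 of the mean of the others). Serpinh1, the collagen chaperone HSP47, was called higher in miKO-tFCI (1.31 ± 0.29, adjusted p = 0.0118) at 126 ± 83.6 CPM against 56.0 ± 52.8 CPM. Plod3, a lysyl hydroxylase, and P3h2, a prolyl hydroxylase, were called lower in miKO in Sham (-0.76 ± 0.12 and -0.75 ± 0.13, adjusted p = 0.000303 and 0.00074) and after tFCI (-0.84 ± 0.12 and -1.12 ± 0.13, adjusted p = 0.000461 and 0.000144).

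Of 19 matrix receptors tested, 12 were called higher in WT after tFCI, 14 higher and 2 lower in miKO, 6 and 1 in miKO-Sham vs. WT-Sham, and 3 and 2 in miKO-tFCI vs. WT-tFCI. Over all genes, 20.9% were called higher and 11.7% lower in WT after tFCI, and 21.9% and 13.9% in miKO. The shares were 8.58% and 6.80% in miKO-Sham vs. WT-Sham and 4.08% and 4.71% in miKO-tFCI vs. WT-tFCI. Cd44, the hyaluronan receptor, was higher in miKO-tFCI than in WT-tFCI at 115 ± 14.4 against 34.5 ± 9.35 CPM (SD, n = 3), a log2 fold change of 1.76 ± 0.16 with adjusted p = 1.12e-05. Itga6, the integrin alpha 6 chain of laminin receptors, was lower in miKO in both surgeries, at 68.0 ± 6.43 against 260.0 ± 25.5 CPM in Sham and 104 ± 13.04 against 296 ± 18.3 CPM after tFCI. Sdc3, syndecan 3, was higher in miKO-Sham at 172 ± 17.7 against 56.5 ± 10.2 CPM (1.63 ± 0.17, adjusted p = 9.64e-06). The receptor sum, unlike that of the matrix genes other than Sparc, was not raised in replicate 1 after tFCI (0.971 and 0.788 of the mean of the others). Much of this sum was the integrin gene Itgb5. Its WT-tFCI mean was 1760.5 CPM, where receptor sums lay between 3115.3 and 3321.9 CPM. For miKO-tFCI its mean was 1054.8 CPM, with receptor sums of 2220.4 to 2931.1 CPM. The sum therefore cannot show whether less abundant receptors were raised in replicate 1.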

How the data were processed

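Microglia sorted from 12 pools of mice were profiled by SMART-Seq v4 paired-end RNA-seq on a NovaSeq from 10 ng of total RNA. The deposited values are raw counts per gene, which the authors made, per the submitters' processing notes, with FastQC 0.11.9, Trim Galore, HISAT2 2.2.1, SAMtools and HTSeq 1.99.2 on mm10 (GRCm38.p6). The order of steps and the annotation are not given in the sources used here. Rows naming no gene were left out: 45.3% to 52.5% of read pairs had no feature and 0.9% to 1.9% were ambiguous. Names, exon lengths and positions came from GENCODE M21 (55141 of 55401 identifiers matched, with or without the version). The kit does not mark strand, and 14 of the 35 genes share exon bases with a gene on the other strand.

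Counts were tested with edgeR 4.0.16 (filterByExpr, TMM, quasi-likelihood) with terms for group and for batch as labelled, on all 12 libraries. The batch term was the same for Sham and tFCI libraries. For the sum of the 34 genes other than Sparc, replicate 1 over the mean of the others was 0.843 in WT-Sham and 0.860 in miKO-Sham. It was 2.99 in WT-tFCI and 3.17 in miKO-tFCI, so a single term does not describe both surgeries. A gene was called at an adjusted p (Benjamini-Hochberg over 16451 genes) under 0.05 and a log2 fold change beyond 0.58. Log2 CPM used a prior count of 2. CPM is the count scaled to the library's total on the genes tested, multiplied by its TMM factor. These factors ran from 0.864 to 1.11. Ratios of counts of 1 to 3 carry exact 95% intervals, which cover counting error only, and floors are 3 counts over a group. The script was tested on simulated data. Alternatives were DESeq2 1.42.0, RLE size factors, no filter, a minimum of 10 counts in every library, no batch term, a replicate block, only the groups compared and leaving out each library. Batch 2 alone, batch within surgery and leaving out replicate 1 of both tFCI groups were added after seeing the data.

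The genes and all lists were chosen with earlier results of these data known. Values in every library are given for called genes, at most 4 per role group and comparison, by mean CPM, and other lists name at most 3 called genes. Genes named beyond this (such as Dpt and Myh11 among markers) illustrate levels and were chosen after their values were seen. Replicates are pools, and nothing says whether pools share litters. miKO-Sham replicates 1 and 2 were the closest pair (chi-square per degree of freedom 2.82, other pairs 3.65 to 76.6) and still differed by more than sampling noise, so both were kept. Sequences came from RefSeq (GRCm38.p6). A further marker on the microglial list is not reported here.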

Additional observations from a re-analysis of the deposited data

Results flagged for a closer look

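The effect of tFCI differed between genotypes, by the interaction term of edgeR's quasi-likelihood test, for 3 of the 35 genes. The interaction was 3.46 on the log2 scale for Col6a3 (adjusted p = 0.0175), 1.61 for Nid2 (adjusted p = 0.0116) and 1.72 for Postn (adjusted p = 0.0272), each with the more positive change in miKO. The 3 miKO-Sham libraries were below every other library for Col6a3 and Nid2, and for Postn below all 6 tFCI libraries except WT-tFCI replicate 1. The part of the markers of other cell types in these 3 was not tested.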

How the results depend on the processing

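In the fits that left out a library, the number of genes called ranged from 31 to 32 in WT-tFCI vs. WT-Sham, 34 to 35 in miKO-tFCI vs. miKO-Sham, 3 to 12 in miKO-Sham vs. WT-Sham, 4 to 23 in miKO-tFCI vs. WT-tFCI and 1 to 4 for the interaction. With the replicate number as a block the counts were 31, 35, 3, 15 and 3, as without it; same-numbered libraries deviated together with correlations of 0.098 to 0.666 for number 1, -0.061 to 0.334 for number 2 and 0.11 to 0.324 for number 3, so beyond batch the numbers were not taken to pair libraries. A minimum of 10 counts in every library left 8 of the 35 genes and called 5 in WT after tFCI, 7 in miKO after tFCI and 4 between the tFCI groups, fewer genes being tested. In miKO-Sham vs. WT-Sham, DESeq2 called 5, no filter 15, batch 2 alone 10 and batch within surgery 10. In miKO-tFCI vs. WT-tFCI, DESeq2 called 9, no filter 28, no batch term 1, only the groups compared 28 and batch within surgery 26. The interaction gave 5 without the filter, 1 without the batch term and 5 in batch 2 alone. The median correlation among replicates was 0.492 with log2 CPM adjusted for batch, 0.668 for genes with 10 counts in every library and 0.003 without replicate 1 of both tFCI groups. Where no cause follows from the construction of the alternative, the cause was not tested. Of the single genes named, 0 reversed direction under the alternatives run. Depth limits the Sham levels most, where 21 of 35 genes stay under 10 counts in a library of each group.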
